A study of Mus musculus with 6 samples.

Results

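The immediate early genes described here are Fos, Fosb, Fosl2, Jun, Junb and Jund, which encode subunits of the transcription factor AP-1, together with Egr1, Atf3, Ier3 and Btg2. These 10 genes were chosen by name, with earlier results of these data known. All 10 were among the 14854 genes tested on the arrays, and each was well above background on all 6 arrays. Whole uteri, flushed of embryos, were measured in 3 females of each genotype, Sox17 f/f and Sox17 ed/ed, at gestational day (GD) 3.5 of natural pregnancy, the time at which the mouse uterus becomes receptive to the embryo. All 6 females were homozygous for the floxed Sox17 allele and were mated at 8 to 10 weeks of age with males of proven fertility. Sox17 ed/ed females also carried 1 copy of iCre knocked into the Ltf locus (LtfiCre/+), which deletes Sox17 in the uterine epithelium of the adult. The Sox17 f/f females were littermates without the recombinase, so that the genotypes differ by the LtfiCre allele as well as by the loss of Sox17. RNA from 1 uterus was hybridized to each Agilent array in 1 colour, and values are given as quantile normalized log2 signals.

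Immediate early genes are transcribed within minutes of a growth factor, hormone, cytokine, mechanical or stress signal, from messages that need no new protein and that are degraded quickly. Their first wave consists mostly of transcription factors: FOS and JUN proteins pair as AP-1 and bind to AP-1 sites, while EGR1 is a zinc finger protein that binds to GC-rich sites. Signals reach these genes through serum response factor with its ternary complex partners and through CREB. In the uterus, Fos, Jun and Egr1 are classical early responders to estrogen, and EGR1 in the stroma takes part in the response to leukemia inhibitory factor (LIF) that precedes implantation.

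Of the 10 genes, 8 were lower in Sox17 ed/ed uteri, 0 were higher and 2, Jun and Jund, did not pass. A gene is said to pass at an unadjusted p under 0.01 with a fold change of at least 1.4, which are the thresholds of the study's methods applied here to limma's moderated test. By that rule 6.46% of all genes tested were lower in Sox17 ed/ed and 6.05% were higher, 12.5% in all. The median log2 difference of the 10 genes, Sox17 ed/ed minus Sox17 f/f, was -1.14, compared with -0.0016 over all genes tested. The arrays of the genotypes did not overlap, with Sox17 ed/ed lower, for 9 of the 10, which was true of 21.0% of all genes. An adjusted p under 0.05 in limma with Sox17 ed/ed lower was reached by 9 of the 10, against 10.0% of all genes. Because the 10 genes were chosen with earlier results known, these shares describe them and are no test of the list.

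Sox17 itself, the targeted gene, had a mean log2 signal of 12.17 in Sox17 f/f and 9.72 in Sox17 ed/ed uteri, a log2 difference of -2.45 (SE 0.09, limma adjusted p = 2.7e-05). The Sox17 ed/ed arrays thus lay where their label puts them. The 6 arrays were on 1 slide and each genotype had its own line of that slide, so line and genotype cannot be told apart. No spot was saturated, and 60.7% to 65.7% of the spots other than controls were well above background on Sox17 f/f arrays against 56.8% to 59.4% on Sox17 ed/ed arrays. For 3 arrays against 3, the smallest p of an exact permutation test is 0.1. Arrays that do not overlap always give that value, so the test adds nothing for the 9 genes whose arrays did not overlap.

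**Figure D1:**
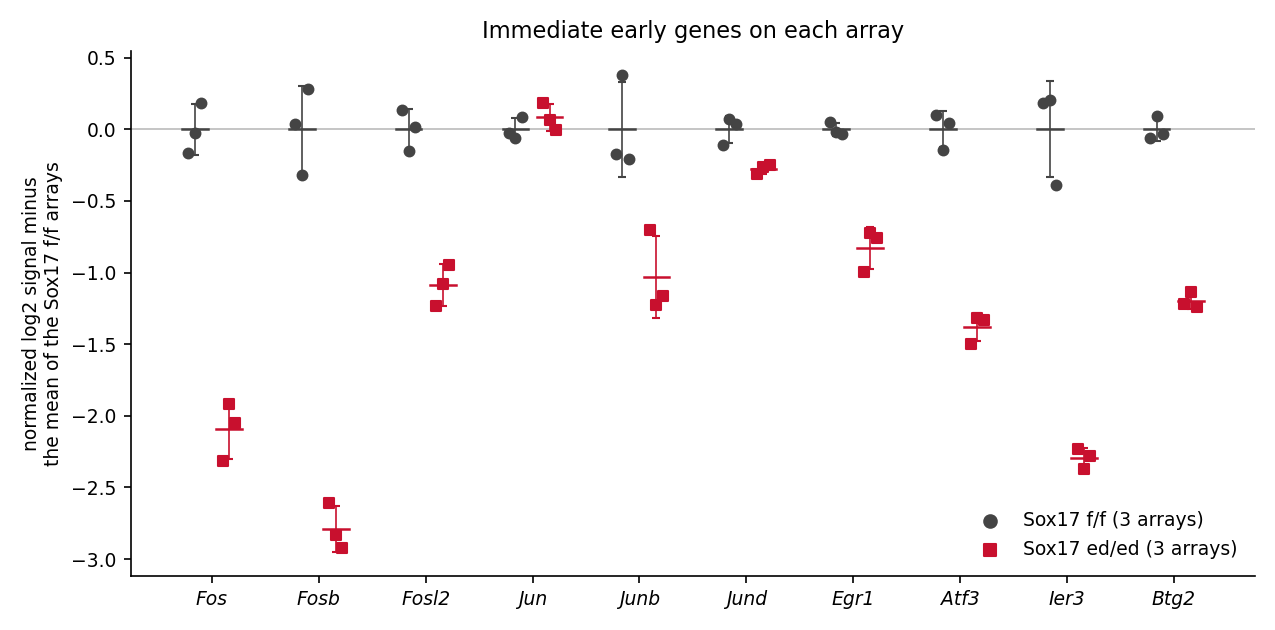
Normalized log2 signal of the 10 immediate early genes on each array, as the difference from the mean of the 3 Sox17 f/f arrays of that gene (circles, Sox17 f/f; squares, Sox17 ed/ed; horizontal line, mean; error bars, SD of 3 arrays). Jun alone has overlapping genotypes, Jund lies 0.27 below the Sox17 f/f mean, and the mean of the other 8 in Sox17 ed/ed lies between 0.83 and 2.79 below it.

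Promoter sequence was examined because 8 of the genes were lower together. RefSeq promoter windows of the GRCm38.p6 assembly, from 250 bases before to 50 bases after the gene start, were at hand for 9 of the 10 genes, all but Egr1. The 200 bases before the start are shown for 5 of the lower genes with a match and for Jun, the AP-1 gene with no difference beyond its spread, 5′ to 3′ on the strand of the gene. Capitals mark a cyclic AMP response element (CRE, TGACGTCA) or its 5-base core (TGACG), an EGR site (GCGNGGGCG) or a TATA box (TATAAA), on either strand.
Fos (plus strand, chr12:85473690-85473889): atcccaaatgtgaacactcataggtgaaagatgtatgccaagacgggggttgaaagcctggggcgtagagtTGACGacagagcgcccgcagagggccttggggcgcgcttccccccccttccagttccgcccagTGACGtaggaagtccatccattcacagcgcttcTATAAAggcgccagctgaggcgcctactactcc
Fosb (minus strand, chr7:19310046-19310245): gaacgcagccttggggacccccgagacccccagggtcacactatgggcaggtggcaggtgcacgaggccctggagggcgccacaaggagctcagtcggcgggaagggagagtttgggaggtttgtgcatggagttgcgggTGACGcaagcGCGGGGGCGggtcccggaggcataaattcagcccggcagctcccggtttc
Fosl2 (plus strand, chr5:32136272-32136471): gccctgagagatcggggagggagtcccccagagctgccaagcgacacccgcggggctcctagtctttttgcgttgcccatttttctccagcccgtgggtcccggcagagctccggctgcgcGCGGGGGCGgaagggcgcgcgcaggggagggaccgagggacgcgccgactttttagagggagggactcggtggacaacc
Junb (minus strand, chr8:84978749-84978948): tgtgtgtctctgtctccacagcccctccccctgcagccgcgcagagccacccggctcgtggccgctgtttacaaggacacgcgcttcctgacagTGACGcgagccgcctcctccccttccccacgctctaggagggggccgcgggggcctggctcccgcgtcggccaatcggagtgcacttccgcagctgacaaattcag
Btg2 (minus strand, chr1:134079156-134079355): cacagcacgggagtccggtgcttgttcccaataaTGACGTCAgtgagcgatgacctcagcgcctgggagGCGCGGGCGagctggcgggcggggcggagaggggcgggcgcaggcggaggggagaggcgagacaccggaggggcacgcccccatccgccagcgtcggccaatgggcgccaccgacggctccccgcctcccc
Jun (minus strand, chr4:95052223-95052422): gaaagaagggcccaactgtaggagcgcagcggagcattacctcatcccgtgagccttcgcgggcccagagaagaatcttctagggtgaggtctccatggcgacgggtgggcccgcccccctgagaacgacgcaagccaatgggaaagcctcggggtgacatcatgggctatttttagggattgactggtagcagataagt

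The CRE core was found in 5 of the 9 windows, those of Fos, Fosb, Junb, Atf3 and Btg2, and in 20.8% of all 32851 windows. Fos held the core at positions -129 and -66, counted from the base before the start as -1, with a TATA box at -33, letters found in 13.6% of all windows. In Btg2 the cores on opposite strands, at -166 and -163, overlapped as the full palindromic CRE, which occurred in 1.79% of all windows. An EGR site lay at -50 in Fosb, at -79 in Fosl2 and at -131 in Btg2, against 5.55% of all windows. Junb had its core at -106 and TATA box letters at the start itself, and Atf3 had a CRE core at -7. The AP-1 site (TGANTCA) and the CArG box, to which serum response factor binds, were found in 0 of the 9 windows, and in 7.81% and 1.63% of all windows, respectively. The letters ACAAT of a SOX site were found in the Jund window only, 7 bases after the start, and in 31.0% of all windows. Jun and Ier3 held none of the motifs searched. A match is a description of these letters, and a window without a match says nothing of more distant sequence.

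Within the FOS family, whose proteins bind DNA only as partners of JUN proteins, Fosb had the greatest difference. Its log2 signal was 9.55, 9.19 and 9.79 on the Sox17 f/f arrays and 6.90, 6.68 and 6.59 on the Sox17 ed/ed arrays. The lowest Sox17 f/f array was 2.29 log2 units above the highest Sox17 ed/ed array. Fosb was therefore 6.91-fold lower (95% interval 5.20 to 9.18; log2 difference -2.79, SE 0.17, limma adjusted p = 0.000177). This was the 110th largest fall among the 14854 genes. With normexp background correction, which compresses low signals, the difference of Fosb was -2.11.

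Fos, the founding member and the classic marker of recent cell stimulation, gave 9.26, 9.40 and 9.61 in Sox17 f/f and 7.10, 7.50 and 7.37 in Sox17 ed/ed uteri. The genotypes lay 1.75 log2 units apart at their nearest arrays. Fos fell 4.27-fold (95% interval 3.39 to 5.38; log2 difference -2.09, SE 0.14, limma adjusted p = 0.000235). The Fos probe was printed as 10 spots on each array, 8 to 10 of which were usable, and the coefficient of variation between spots of an array was 3.11% to 9.75%. The spread between spots was thus small beside the difference between genotypes.

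Fosl2, which encodes FRA2, had log2 signals of 12.49, 12.21 and 12.37 in Sox17 f/f and 11.13, 11.28 and 11.41 in Sox17 ed/ed uteri. It was 2.12-fold lower (95% interval 1.77 to 2.55; log2 difference -1.09, SE 0.11, limma adjusted p = 0.00138). A second, dimmer Fosl2 probe gave 5.87, 6.08 and 6.54 in Sox17 f/f but in Sox17 ed/ed uteri it was not well above background on any of the 3 arrays. By that probe Fosl2 was at least 3.59-fold lower, the bound being the Sox17 f/f mean over, on each Sox17 ed/ed array, the higher of the probe's own signal and the lowest signal well above background. The probes moved in the same direction with different sizes, but the Sox17 f/f arrays alone kept the dimmer probe for testing. The mean of the probes gave a log2 difference of -1.56, with the dimmer probe at its fitted signal and not at its bound.

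In the JUN family, Junb passed and Jun and Jund did not. Jun, whose protein pairs with FOS to form the most studied AP-1 dimer, had log2 signals of 13.40, 13.37 and 13.51 in Sox17 f/f and 13.61, 13.49 and 13.42 in Sox17 ed/ed uteri. The arrays overlapped, and the log2 difference was 0.08 (95% interval -0.11 to 0.28, limma adjusted p = 0.512). That interval leaves room for a rise of up to 1.21-fold but for no fall of the size of Fos.

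Jund, an AP-1 subunit that is expressed at a steady level in most resting cells, had log2 signals of 14.29, 14.47 and 14.44 in Sox17 f/f and 14.09, 14.14 and 14.15 in Sox17 ed/ed uteri. All Sox17 ed/ed arrays lay below all Sox17 f/f arrays, by a margin of 0.14. Jund was 1.21-fold lower (95% interval 1.07 to 1.37; log2 difference -0.27, limma adjusted p = 0.0465) and did not reach the fold change of 1.4.

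Junb, an inducible subunit that can restrain JUN activity, gave 6.53, 7.08 and 6.49 in Sox17 f/f and 5.998, 5.47 and 5.54 in Sox17 ed/ed uteri. It was 2.05-fold lower (95% interval 1.44 to 2.91; log2 difference -1.03, SE 0.21, limma adjusted p = 0.0205). Among the 10 genes it had the widest spread between the Sox17 ed/ed arrays, SD 0.29. Its processed signal before normalization was 85.9 to 139.5 in Sox17 f/f and 41.5 to 65.3 in Sox17 ed/ed uteri, above the 13.1 to 17.95 at which spots were called well above background on these arrays. Junb no longer passed without Sox17 ed/ed replicate 2 (log2 difference -0.93, limma adjusted p = 0.0652) or replicate 3 (-0.97, limma adjusted p = 0.0701), and its difference was -0.60 with normexp background correction.

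The 95% intervals of the Jun and Jund differences, which end at -0.11 and -0.45 on their lower side, did not reach the upper ends of the intervals of Fosb, Fos or Fosl2, at -2.38, -1.76 and -0.82. The difference between genes was not itself tested.

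Egr1 encodes the zinc finger factor that is induced beside Fos by many stimuli. Its log2 signals were 11.47, 11.40 and 11.39 in Sox17 f/f and 10.43, 10.70 and 10.66 in Sox17 ed/ed uteri, and the genotypes lay 0.69 apart at their nearest arrays. Egr1 was 1.77-fold lower (95% interval 1.52 to 2.06; log2 difference -0.83, SE 0.09, limma adjusted p = 0.00193), the smallest fall of the 8 genes that passed.

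Atf3 encodes a stress-responsive factor of the ATF and CREB family, which forms dimers with JUN proteins and binds to CRE sites. It had log2 signals of 9.69, 9.44 and 9.63 in Sox17 f/f and 8.09, 8.27 and 8.26 in Sox17 ed/ed uteri. Every Sox17 ed/ed array lay at least 1.18 below every Sox17 f/f array. The fall was 2.61-fold (95% interval 2.23 to 3.05; log2 difference -1.38, SE 0.09, limma adjusted p = 0.000267).

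Ier3, also known as IEX-1, encodes a short-lived protein that modulates apoptosis and ERK signaling. Its log2 signals were 10.59, 10.61 and 10.02 in Sox17 f/f and 8.17, 8.03 and 8.12 in Sox17 ed/ed uteri. The Sox17 f/f arrays spread more (SD 0.34) than the Sox17 ed/ed arrays (SD 0.07), without overlap. Ier3 was 4.91-fold lower (95% interval 3.70 to 6.52; log2 difference -2.30, SE 0.17, limma adjusted p = 0.000375), a fall second among the 10 genes to that of Fosb.

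Btg2 encodes an antiproliferative protein that recruits the CCR4-NOT deadenylase to messenger RNA. It gave 10.68, 10.84 and 10.71 in Sox17 f/f and 9.52, 9.61 and 9.51 in Sox17 ed/ed uteri, a tight pair of groups with SDs of 0.08 and 0.06. Btg2 was 2.29-fold lower (95% interval 2.03 to 2.59; log2 difference -1.20, SE 0.07, limma adjusted p = 0.000173). An SE of 0.07, the smallest of the 10 genes after rounding, was shared with Jund.

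No array set the pattern alone. The 10 genes were highest of their genotype 3, 4 and 3 times on Sox17 f/f replicates 1, 2 and 3, and 4, 4 and 2 times on the Sox17 ed/ed replicates. The median difference of the 10 genes from the Sox17 f/f mean was -1.23, -1.18 and -1.20 on the Sox17 ed/ed arrays and between -0.02 and 0.03 on the Sox17 f/f arrays.

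**Figure D2:**
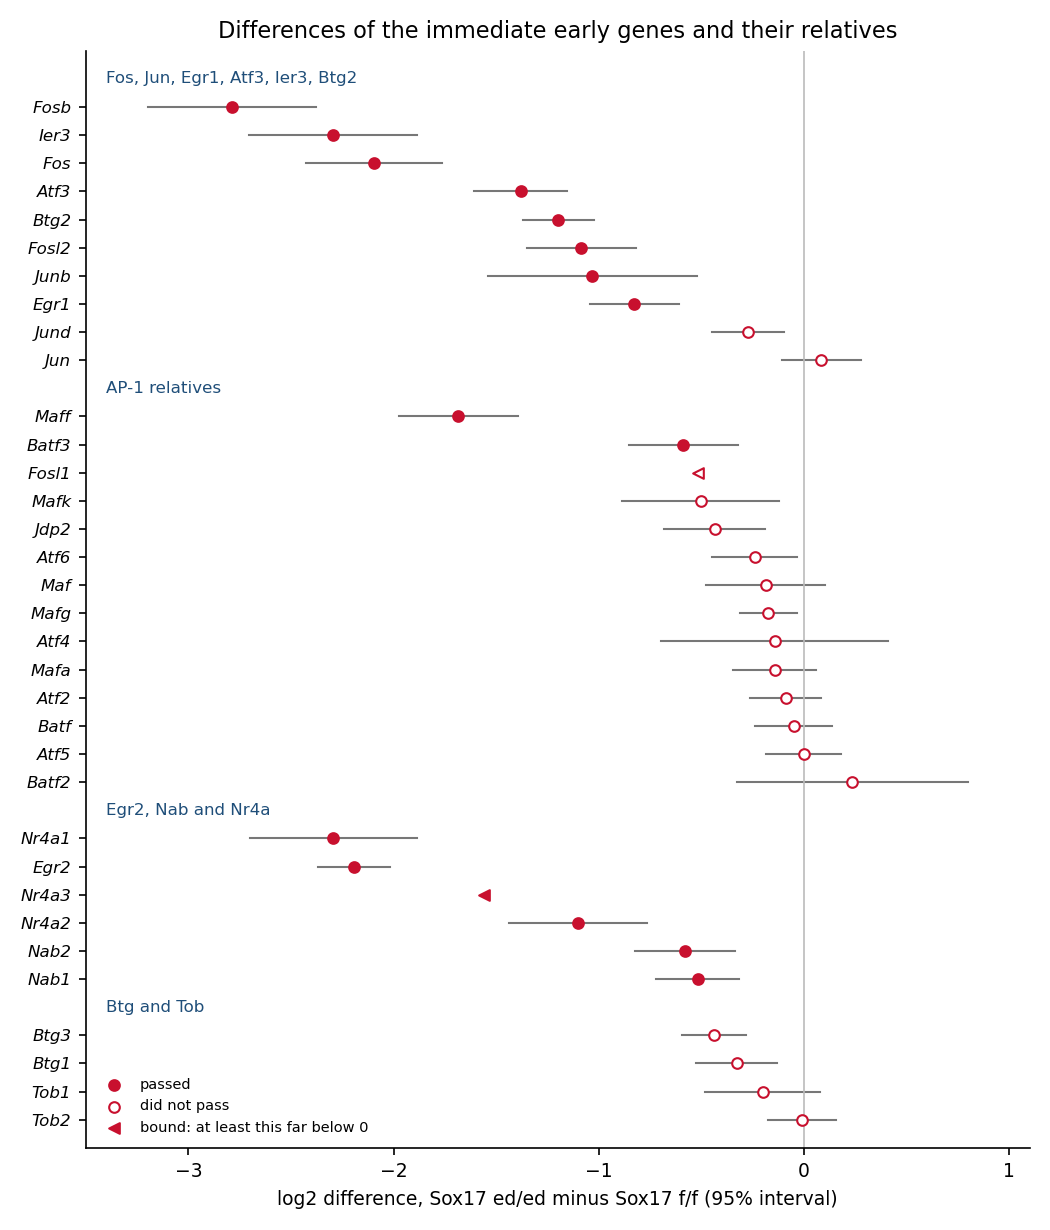
Log2 difference (Sox17 ed/ed minus Sox17 f/f, 3 arrays each) for the 10 immediate early genes and the tested members of their families, with 95% intervals from limma. Filled symbols passed, open symbols did not, and triangles mark the bounds of Fosl1 and Nr4a3, which were not well above background in Sox17 ed/ed. All 6 genes of the Egr, Nab and Nr4a list passed, whereas 2 of the 14 AP-1 relatives did, compared with 12.5% of all genes tested.

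Of 14 tested genes of the wider AP-1 family, 2 were lower, 0 were higher and 12 did not pass, with a median log2 difference of -0.18, a share near the 12.5% of all genes that passed. Maff, a small MAF protein without a transactivation domain, fell by 1.68 (SE 0.12, limma adjusted p = 0.000336), and Batf3, a partner of JUN proteins in dendritic cells, fell by 0.59 (SE 0.11, limma adjusted p = 0.0149). The values of 11 of the other genes, Mafk, Jdp2, Atf6, Maf, Mafg, Atf4, Mafa, Atf2, Batf, Atf5 and Batf2, were between -0.50 and 0.24. Jdp2, a repressor that competes with FOS for JUN, had a log2 difference of -0.44 (limma adjusted p = 0.0318) and missed the fold threshold. Fosl1, which encodes FRA1 and is itself an AP-1 target, was not well above background in Sox17 ed/ed uteri. Its Sox17 f/f arrays alone kept it for testing, and it did not pass (limma adjusted p = 0.0818). The bound of Fosl1 was 1.43-fold and its log2 difference with normexp -0.31. Atf7 and Nrl were not tested.

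All 6 tested genes among the relatives of Egr1, their NAB corepressors and the NR4A orphan nuclear receptors were lower, against 6.46% of all genes. Their median log2 difference was -1.33 with Nr4a3 at its bound. Egr2 gave 9.80, 9.79 and 9.67 in Sox17 f/f and 7.49, 7.55 and 7.63 in Sox17 ed/ed uteri, a log2 difference of -2.19 (SE 0.07, limma adjusted p = 2e-05). For Nr4a1, also known as NUR77, the values were 13.44, 13.34 and 13.63 against 10.84, 11.43 and 11.26, a difference of -2.29 (SE 0.17, limma adjusted p = 0.00037). Both differences were larger than that of Egr1, a contrast between genes that was not tested. Nr4a2 fell by 1.102 (SE 0.14), while Nab2 and Nab1, whose proteins bind to EGR proteins, fell by 0.58 and 0.52. Nr4a3 was at least 2.94-fold lower, with no Sox17 ed/ed array well above background, and its log2 difference with normexp was -0.92. It is counted among the 6 although its Sox17 f/f arrays alone kept it for testing. Nab1 fell below the fold of 1.4 without Sox17 ed/ed replicate 2 (-0.46). Egr3 and Egr4 were not tested.

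Among 61 further immediate early and delayed early genes that were tested, 23 were lower, 2 were higher and 36 did not pass. Their median was -0.34, and of all genes tested 6.46% were lower and 6.05% were higher. Il6, an inflammatory cytokine, was at least 5.66-fold lower and Lif at least 3.75-fold lower, neither being well above background in Sox17 ed/ed uteri. These bounds rest on the background subtraction, and with normexp the log2 differences were -1.31 for Il6 and -0.90 for Lif. Both genes are counted among the 23 although their Sox17 f/f arrays alone kept them for testing. Ccn2, the connective tissue growth factor, fell by 3.04 (SE 0.12, limma adjusted p = 3.5e-05). The genes that rose were Sgk1, a kinase induced by steroid hormones (log2 difference 1.68, SE 0.17, limma adjusted p = 0.00124), and Ptgs2, the inducible cyclooxygenase of prostaglandin synthesis (0.998, SE 0.17, limma adjusted p = 0.0116).

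Of 38 genes for the proteins that carry signals to the immediate early genes, among them serum response factor, its partners, CREB factors and MAP kinases, 2 were lower, 2 were higher and 34 did not pass, with a median of -0.14. That share is near the 12.5% of all genes that passed. Crem, whose product ICER represses CRE-driven genes and is itself induced through CREs, fell by 1.37 (SE 0.10, limma adjusted p = 0.000317). Crtc3, a CREB coactivator, fell by 0.49 (limma adjusted p = 0.0142), close to the fold threshold. Map3k1, a kinase upstream of JNK, rose by 0.68 (SE 0.06, limma adjusted p = 0.000767), and Rps6ka1, the kinase RSK1, by 0.60 (SE 0.08, limma adjusted p = 0.00517). Crtc3 no longer passed with normexp background correction (-0.31), nor without Sox17 f/f replicate 3 (-0.46), Sox17 ed/ed replicate 1 (-0.47) or Sox17 ed/ed replicate 2 (-0.43). Phosphorylation, by which most of these proteins act, was not measured.

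Secreted and matrix genes that textbooks list as AP-1 linked were lower in 8 of 22 cases and higher in 0. The other 14 did not pass, and the median was -0.19. Of all genes tested, 6.46% were lower and 6.05% were higher. Il1b, the cytokine interleukin 1β, fell by 2.60 (SE 0.13, limma adjusted p = 8.1e-05), or by 1.28 with normexp. The metallothioneins Mt2 and Mt1, which bind zinc and copper, fell by 1.75 and fell by 1.49, respectively (limma adjusted p = 8.5e-05 and 0.000115).

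Heat shock and stress genes, which respond to damaged protein and oxidants, were taken as a comparison list. Among 23 tested, 1 was lower, 1 was higher and 21 did not pass, with a median of -0.03, again near the 12.5% of all genes that passed. Hmox1, the heme oxygenase, fell by 0.74 (SE 0.18, limma adjusted p = 0.0339), and Gdf15, a stress cytokine, rose by 3.05 (SE 0.23, limma adjusted p = 0.000415), or by 2.11 with normexp. Hmox1 missed the threshold without any of the 3 Sox17 ed/ed replicates (-0.77, -0.72 and -0.73, respectively) and with the mean of its probes (-0.65). In the Btg and Tob family, only Btg2 passed of 5 genes tested, where 12.5% of all genes passed. Btg3 had a log2 difference of -0.44 (limma adjusted p = 0.00609) and Btg1 of -0.33 (limma adjusted p = 0.0388), both short of the fold threshold, which Btg3 reached with a shift by the 75th percentile (-0.51) and with normexp (-0.4997), while the values of Tob1 and Tob2 were -0.20 and -0.01.

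The 7 wider lists, without the 10 genes themselves, held 165 tested genes. Of these, 42 were lower, 5 were higher and 118 did not pass, with a median log2 difference of -0.20. Over all genes tested, 6.46% were lower and 6.05% were higher. These lists too were chosen with earlier results known, so the counts are a description.

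**Figure D3:**
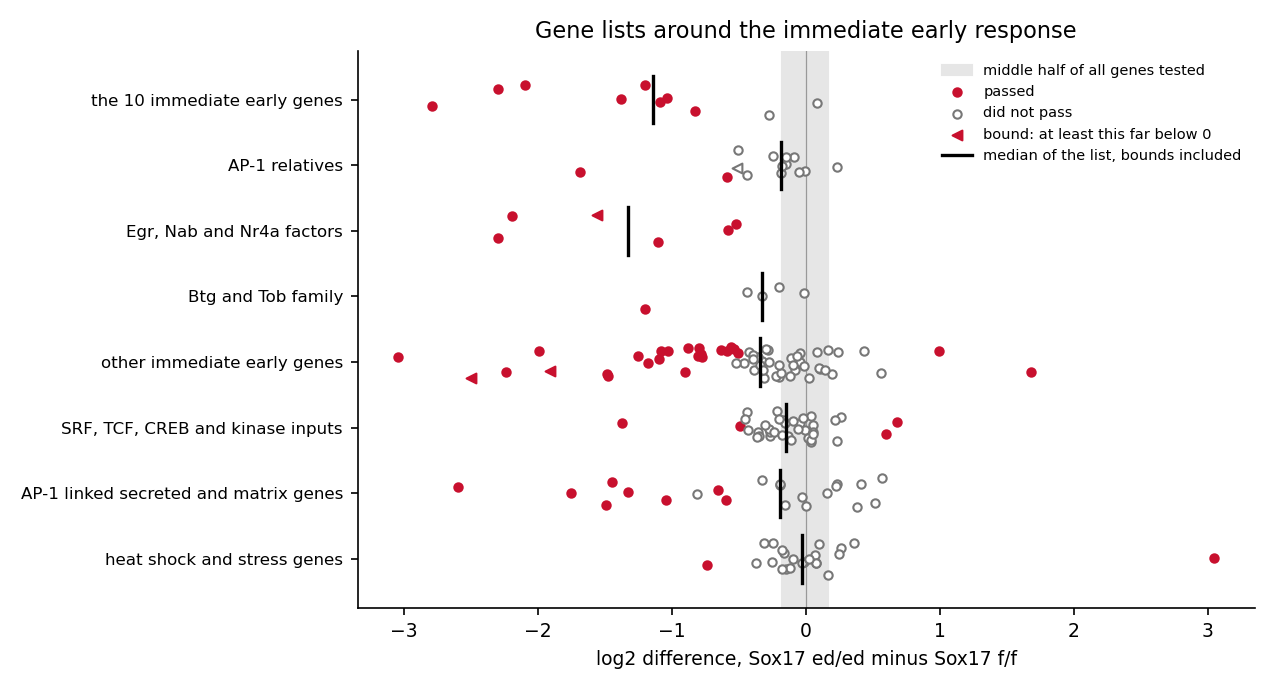
Log2 difference (Sox17 ed/ed minus Sox17 f/f) for each tested gene of 8 lists (red, passed; open, did not pass; triangle, bound for a gene not well above background in Sox17 ed/ed; black line, median). The grey band holds the middle of all 14854 genes tested, between the first and the third quartile at -0.17 and 0.17, and the medians of the 10 immediate early genes and of the Egr, Nab and Nr4a list, -1.14 and -1.33, lie well to its left.

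In whole uterus, fewer cells of a type and less RNA per cell cannot be told apart. All 8 tested gland markers were lower in Sox17 ed/ed uteri. Their summed signal was 34697 to 55508 on Sox17 f/f arrays and 216 to 314 on Sox17 ed/ed arrays. The defining markers Prss29 and Ttr did not stand well above background in Sox17 ed/ed uteri. Neither did Lif, which is also in the list of immediate early genes above. All of these were kept for testing by their Sox17 f/f arrays alone. The part of the loss of gland marker signal in the differences of the immediate early genes was not tested. The summed signal of 13 markers of uterine epithelium was 55168 to 57970 in Sox17 f/f and 54970 to 67176 in Sox17 ed/ed uteri, with 5 genes higher and 2 lower. None of 13 stroma markers or 6 neutrophil markers passed, and 1 of 9 smooth muscle, 1 of 9 macrophage and leukocyte and 1 of 7 erythrocyte and platelet markers was lower. Of 9 endothelial markers 1 was lower and 1 higher, but 8 had a log2 difference below 0, the median was -0.36, and their summed signal was 18311 to 21846 in Sox17 f/f and 15374 to 16271 in Sox17 ed/ed uteri. The summed signal was also lower in Sox17 ed/ed uteri, without overlap, for smooth muscle (501625 to 554109 against 375060 to 452079) and stroma (530614 to 552735 against 465876 to 525792). It was higher for macrophages and leukocytes (16219 to 16489 against 18786 to 20319). These sums weigh the brightest genes most. The median log2 difference was 0.59 for uterine epithelium, -0.28 for smooth muscle, -0.02 for stroma and 0.22 for macrophages and leukocytes. Below 0 were 5 of 13 uterine epithelium, 7 of 9 smooth muscle, 7 of 13 stroma and 3 of 9 macrophage and leukocyte markers. The part of these marker shifts in the differences of the immediate early genes was not tested either. Of 6 stratified squamous epithelium markers 1 was higher, and of 5 ovary and oviduct markers 1 was lower. The higher squamous marker, Krt5, was not well above background in Sox17 f/f uteri. It was kept for testing by its Sox17 ed/ed arrays alone. For all these marker counts, the share of all genes tested was 6.46% lower and 6.05% higher.

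**Figure D4:**
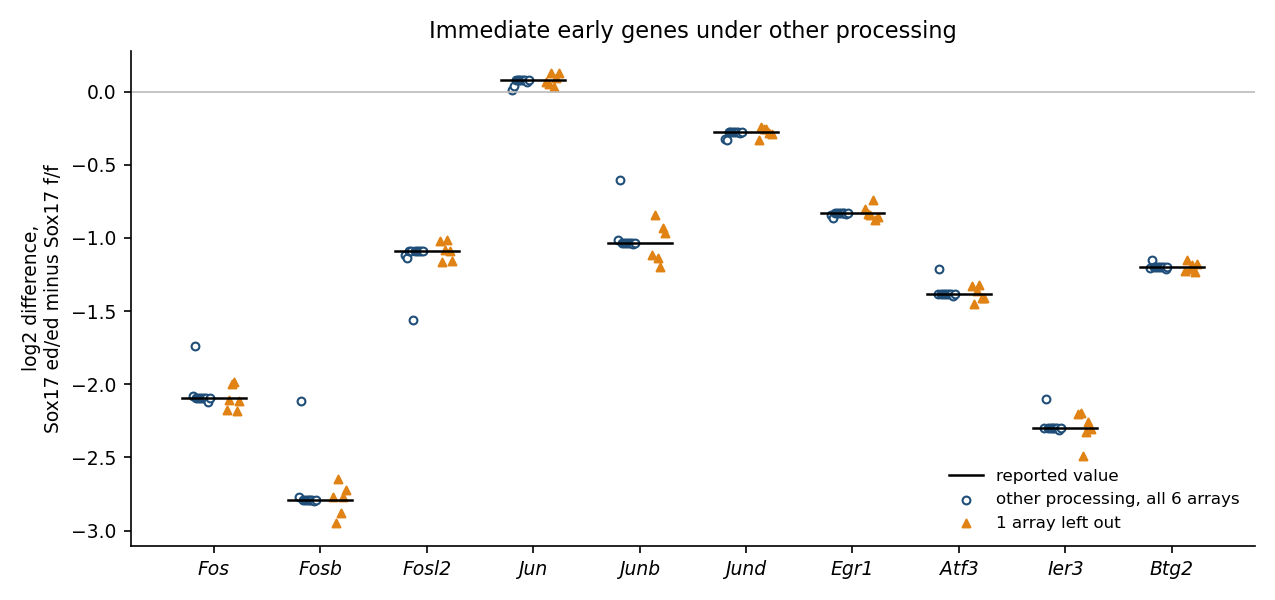
Log2 difference of each immediate early gene as reported (line), under other processing of all 6 arrays (circles) and with 1 array left out (triangles). Each of the 8 genes that passed stayed below 0 throughout, from -2.95 for Fosb to -0.60 for Junb, Jund stayed between -0.33 and -0.24, and Jun between 0.01 and 0.13.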

How the data were processed

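The authors deposited the Agilent scanner output of 6 arrays (1 uterus each), with background-subtracted, spatially detrended processed signal intensity per spot, not normalized between arrays. The file headers name Feature Extraction 11.0.1.1 and the submitters' processing notes version 9.1; the array design uses mm9. Samples were grouped by genotype as labelled. Control spots and 169 to 302 outlier spots per array were left out, log2 intensity was quantile normalized, as the study's methods state, and replicate spots were averaged by probe. A probe was kept if at least 3 arrays had it well above background. Accessions placed 26582 of 55681 probes in 20145 genes (RefSeq, GRCm38.p6), and the brightest probe stood for a gene. Genotypes were compared with limma 3.58.1 (lmFit, eBayes) in R 4.3.3, Benjamini-Hochberg adjusted over 14854 genes and tested on simulated data. Promoters and plots used Python 3.11.15, pandas 2.3.3, numpy 2.4.6 and matplotlib 3.10.9. The number of arrays limits precision.

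The 10 genes and all lists were chosen with earlier results of these data known. The rule for named genes was: the 10 genes, every tested gene of the AP-1, Egr, Nab and Nr4a, and Btg and Tob lists, the 3 highest and 3 lowest passing genes of each other list, and Sox17, with marker genes named only where their levels stand beside a result. Alternatives were a shift by the 75th percentile, normexp on the median in place of the mean signal (offset 50), no filter, all 6 arrays above background, the mean or the smallest-p probe of a gene, an intensity trend, a linear model without moderation, the deposited processed values (log2 of the intensity, within 0.0504% of the mean processed signal where that exceeds 10), a replicate block, other thresholds, promoter bases before the start alone, and each array left out. Protein sequences were not analysed here, and 1 gene of the AP-1 list is not reported here and was left out of its counts.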

Additional observations from a re-analysis of the deposited data

How the results depend on the processing

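Of the 10 immediate early genes, 8 passed, and 7 to 9 passed across the alternatives. Junb lost its call in a linear model without moderation (-1.03, adjusted p = 0.0817), its values with 1 array left out were -1.20 to -0.84, and the other 9 genes kept their direction and call in every refit. At a fold of at least 2, Egr1 no longer passed, and at an adjusted p under 0.05 without a fold threshold, Jund did. All genes that passed numbered 1858, but 819 at a fold of at least 2 and 2799 at an adjusted p under 0.05 without a fold threshold. In the wider lists, 47 passed, and 26 at a fold of at least 2. Among relatives that did not pass, the sign turned for Atf5 with normexp (0.026) and without 1 array (-0.059 to 0.048), Atf4 (-0.33 to 0.017), Batf (-0.088 to 0.016), Batf2 (-0.037 to 0.41) and Tob2 (-0.038 to 0.025). Calls were gained by Btg3 (above) and by Jdp2 without Sox17 f/f replicate 1 (-0.49) or Sox17 ed/ed replicate 3 (-0.51). Mafk gained a call with an intensity trend (limma adjusted p = 0.0382) or without Sox17 f/f replicate 3 (-0.66). Fosl1, kept for testing by its Sox17 f/f arrays alone, gained a call with the 75th percentile shift (limma adjusted p = 0.0488). Hmox1 also lost its call in a linear model without moderation (adjusted p = 0.104) and with the replicate block (adjusted p = 0.0667). The causes were not tested. With the bases before the start alone, the SOX site was found in 0 windows and the TATA box in 1, since the other matches lay at or after the start. Replicate numbers did not pair the arrays (correlations of deviations 0.06, -0.11 and -0.002). With the number as a block, 8 of the 10 genes and 1796 of all genes passed, and the log2 difference of Junb was -1.03 with an adjusted p of 0.0597. A slide or scan block could not be fitted, since all 6 arrays shared 1 slide and 1 scan. Signals near background, as for Junb and the dimmer Fosl2 probe, are uncertain on a log scale, and 3 arrays in each group limit every interval.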
